A study of Mus musculus with 6 samples.

Results

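The RNA levels of 8 enzymes that hydrolyse lysophospholipids, glycerophosphodiesters or N-acyl phospholipids were compared in long-term chronic myelogenous leukaemia (LT-CML) stem cells with and without an intact *Gdpd3* gene. The members were chosen by gene name and were *Gdpd1*, *Gdpd2*, *Gdpd3*, *Gdpd5*, *Gde1*, *Enpp2*, *Napepld* and *Abhd4*. Each name matched 1 row, giving 8 of the 36976 genes in the table. The comparison asks whether relatives of *Gdpd3* were present at a higher level when *Gdpd3* was disrupted. LT-CML stem cells (CD150+CD48-CD135-LSK) were sorted by flow cytometry from the bone marrow of tet-CML mice on the C57BL/6 strain, 5 weeks after disease induction. All mice carried the SCL-tTA and TRE-BCR-ABL1 transgenes, so that BCR-ABL1 is driven in SCL-expressing blood cells when doxycycline is withdrawn, and the controls were leukaemic too. Healthy cells were not part of the comparison. There were 3 *Gdpd3*+/+ libraries (replicates 1, 2 and 3), made from 22 male and 12 female mice, and 3 *Gdpd3*-/- libraries (replicates 5, 6 and 7), made from 5 males and 5 females. Animals were therefore pooled and the sex ratio differed between the genotypes, so sex and genotype cannot be told apart. The study's legends call the 3 samples of each genotype biologically independent.

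Lysophospholipase D enzymes remove the head group of a lysophospholipid and leave lysophosphatidic acid (LPA), a lipid that signals through G protein-coupled receptors. *Gdpd1* and *Gdpd3* encode membrane-bound members of the glycerophosphodiester phosphodiesterase family with this activity, while *Enpp2* encodes autotaxin, the secreted lysophospholipase D that makes LPA outside cells. *Gde1*, *Gdpd2* and *Gdpd5* encode glycerophosphodiester phosphodiesterases with other preferred substrates. *Napepld* and *Abhd4* encode enzymes on separate routes from N-acyl phosphatidylethanolamines to N-acylethanolamines, the family that includes anandamide.

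The *Gdpd3*-/- allele is a deletion of 5 bases made by genome editing near the start of the coding sequence. It is shown because it decides what an RNA level can say about the allele. Both lines start at the A of the start codon, read 5′ to 3′ on the + strand, at chr7:126766471-126766530 of GRCm38 (GENCODE M21 transcript). The capitals mark the deleted bases, 15 to 19 counted from 1 at that A, which lie at positions 126766485 to 126766489 in exon 1.
Gdpd3+/+: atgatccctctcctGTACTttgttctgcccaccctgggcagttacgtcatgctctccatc
Gdpd3-/-: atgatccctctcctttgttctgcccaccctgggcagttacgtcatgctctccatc
The intact reading frame runs for 330 codons. Without the 5 bases the first 4 codons are unchanged, the frame then shifts, and a stop codon follows after 70 codons. The deletion takes 5 of the 1066 bases over which *Gdpd3* fragments were counted, so RNA from the edited gene could still be counted and the *Gdpd3* level is not a direct check of the allele.

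The libraries held 49753146 to 62762437 fragments in *Gdpd3*+/+ and 21334716 to 36421439 fragments in *Gdpd3*-/-. Levels are given in FPKM, fragments scaled by gene length and library size. On the log2(FPKM + 0.1) scale, over 15103 genes that averaged 1 FPKM or more, the 3 *Gdpd3*+/+ libraries correlated with each other at 0.974 to 0.979 and the 3 *Gdpd3*-/- libraries at 0.808 to 0.865. The stem cell marker *Kit* was present in every library, at 108 to 136 FPKM. *Slamf1*, the gene of CD150, varied more, at 10.1 to 11.7 FPKM in *Gdpd3*+/+ and at 5.41 FPKM, 13.2 FPKM and 7.71 FPKM in *Gdpd3*-/- replicates 5, 6 and 7. Its groups overlapped, with an adjusted p of 0.504 in limma. Genes of the surface proteins that the sort selects against were present as well and differed between the genotypes: *Flt3* (CD135) stood at 9.80 to 11.01 FPKM in *Gdpd3*+/+ and 36.8 to 46.5 FPKM in *Gdpd3*-/-, with an adjusted p of 0.00562 in limma, and *Cd48* at 39.8 to 44.8 FPKM and 51.6 to 92.2 FPKM, without overlap and with an adjusted p of 0.188. Genes of other cell types were present as well. All 13 skeletal muscle markers were higher in each *Gdpd3*-/- library than in any *Gdpd3*+/+ library, with a summed level of 918 to 1363 FPKM in *Gdpd3*+/+ and of 11900 FPKM, 17080 FPKM and 2256 FPKM in *Gdpd3*-/- replicates 5, 6 and 7. All 7 neutrophil markers were lower in each *Gdpd3*-/- library, summing to 28496 to 31433 FPKM in *Gdpd3*+/+ and 7799 to 13415 FPKM in *Gdpd3*-/-. All 7 plasma cell markers were lower too, summing to 2318 to 2975 FPKM and 1066 to 1926 FPKM. In such bulk samples, fewer cells of a type and less RNA per cell cannot be told apart.

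Behind *Abhd4* and *Gde1*, *Gdpd3* had the highest mean of the 8 genes in *Gdpd3*+/+ cells and was nearly absent from 2 of the 3 *Gdpd3*-/- libraries. It stood at 7.30 FPKM, 3.29 FPKM and 2.95 FPKM in *Gdpd3*+/+ replicates 1, 2 and 3, from 387, 220 and 193 fragments. In *Gdpd3*-/- replicates 5, 6 and 7 it stood at 0.110 FPKM, 0.0129 FPKM and 0.681 FPKM, from 2.5, 0.5 and 18.25 fragments (a fragment that falls on several genes or places is split between them). Every *Gdpd3*-/- library was below every *Gdpd3*+/+ library, replicate 1 stood apart as the highest of its group, and replicate 7 kept 15.1% of the *Gdpd3*+/+ mean. The mean was 4.51 ± 2.42 FPKM (SD, n = 3) in *Gdpd3*+/+ and 0.268 ± 0.361 FPKM (SD, n = 3) in *Gdpd3*-/-, 16.8-fold lower. The log2 fold change was -4.00 ± 0.77 (SE), with a 95% interval of -5.85 to -2.16, and the adjusted p was 0.0588 with limma, just above the threshold of 0.05. Without *Gdpd3*-/- replicate 7 the adjusted p was 0.0106, in a setting where 3413 genes passed, against 422 with all libraries.

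*Gdpd3* lies at chr7:133909928-133919157 on the + strand of mm9, the build of the deposited coordinates, with 10 exons. Its last exon, 190 bases at 133918968 to 133919157, lies wholly inside *Gm9967*, a gene annotated on the opposite strand at chr7:133918479-133920332. A fragment there cannot be assigned to either gene by position alone. *Gm9967* stood at 1.41 FPKM, 0.743 FPKM and 0.801 FPKM in *Gdpd3*+/+ replicates 1 to 3 and at 0.0379 FPKM, 0.00740 FPKM and 0.172 FPKM in *Gdpd3*-/- replicates 5 to 7. Its order over the *Gdpd3*-/- libraries was the same as that of *Gdpd3*, and its genotype groups did not overlap either. The log2 fold change of *Gm9967* was -2.72 ± 0.55 (SE), with an adjusted p of 0.0640 in limma. Without replicate 7, when 3413 genes passed, that adjusted p was 0.0192. The 0.5 fragment of *Gdpd3* in replicate 6 was matched by 0.5 fragment of *Gm9967*.

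The nearest genes outside this overlap were not lower in *Gdpd3*-/- as deposited. *Mapk3*, which encodes the kinase ERK1 and ends upstream of *Gdpd3*, stood at 20.3 to 22.5 FPKM in *Gdpd3*+/+ and 22.3 to 25.9 FPKM in *Gdpd3*-/-, and these ranges overlapped. Its log2 fold change was 0.15 ± 0.11 (SE), with an adjusted p of 0.439 in limma, and -0.05 after TMM scaling. *Ypel3*, which starts downstream, stood at 53.9 FPKM, 52.6 FPKM and 54.0 FPKM in *Gdpd3*+/+ and at 98.7 FPKM, 72.8 FPKM and 66.8 FPKM in *Gdpd3*-/-. Its groups did not overlap, with a log2 fold change of 0.55 ± 0.15 (SE) and an adjusted p of 0.109 in limma. Without *Gdpd3*-/- replicate 7, when 3413 genes passed, that adjusted p was 0.0424.

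**Figure D1:**
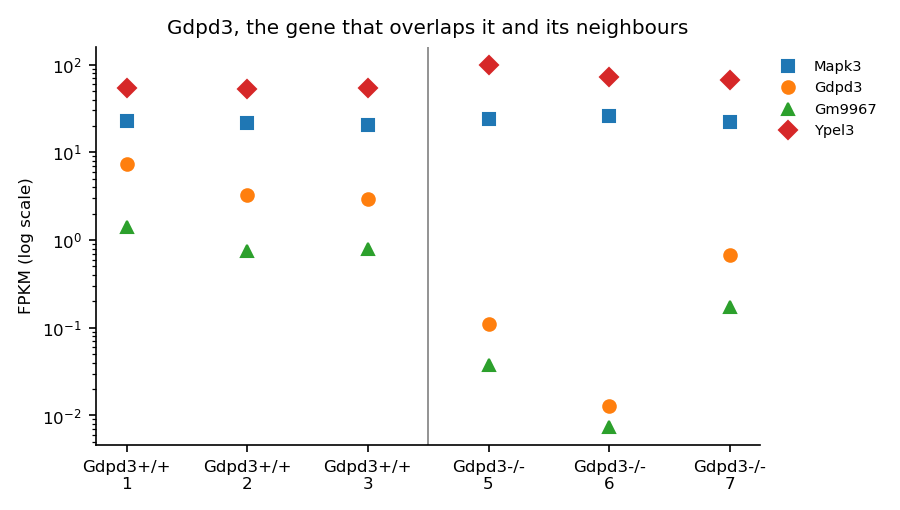
FPKM on a log scale (vertical) of *Gdpd3*, of *Gm9967*, which overlaps its last exon, and of the nearest genes *Mapk3* and *Ypel3* in each of the 6 libraries (horizontal), 1 point a gene and library. *Gdpd3* and *Gm9967* were lowest together in *Gdpd3*-/- replicate 6, at 0.0129 FPKM and 0.00740 FPKM, while *Mapk3* stayed between 20.3 and 25.9 FPKM.

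Over all genes, 422 of 24689 tested passed an adjusted p of 0.05 in limma, 1.71%, of which 270 (1.09% of those tested) were higher and 152 (0.616%) lower in *Gdpd3*-/-. Under TMM scaling the split turned to 121 higher and 237 lower. Without *Gdpd3*-/- replicate 7, 3413 genes passed, and without *Gdpd3*+/+ replicates 1, 2 and 3 in turn 0, 1 and 21 did. A pass without replicate 7 therefore does not set a gene apart. Taken over all genes tested, the median difference on the log2 scale was 0.24 as deposited and 0.06 after TMM scaling, so a gene that kept its place among all genes has a value somewhat above 0 as deposited. None of the 8 members passed this threshold, and none did with voom weights on recovered fragments. At an unadjusted p under 0.05 there were 3 members, *Gdpd3*, *Napepld* and *Gdpd2*, all lower in *Gdpd3*-/-, while 22.2% of all genes had such a p. In the same 3 genes all *Gdpd3*-/- libraries lay below all *Gdpd3*+/+ libraries, as did 8.27% of all genes tested. In 0 of the 8 did all *Gdpd3*-/- libraries lie above, whereas 23.5% of all genes did. These counts include *Gdpd3*, the edited gene itself, so the relatives among the 3 lower genes were *Napepld* and *Gdpd2*. *Gdpd2* was at 0 FPKM in all *Gdpd3*-/- libraries and passed the filter, a mean of 0.05 FPKM, only through *Gdpd3*+/+. A gene admitted in that way can only be lower, so its place in these counts is no support for a difference. The members' median log2 fold change was -0.35 with *Gdpd3* included. Without it the middle value was that of *Abhd4*, 0.06. The 3 of the 8 that lay above the median of all genes were *Enpp2*, *Gdpd5* and *Gde1*. The exact permutation test of mean FPKM, two-sided with 20 assignments, can give no p below 0.1, which *Gdpd3*, *Napepld* and *Gdpd2* reached.

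**Figure D2:**
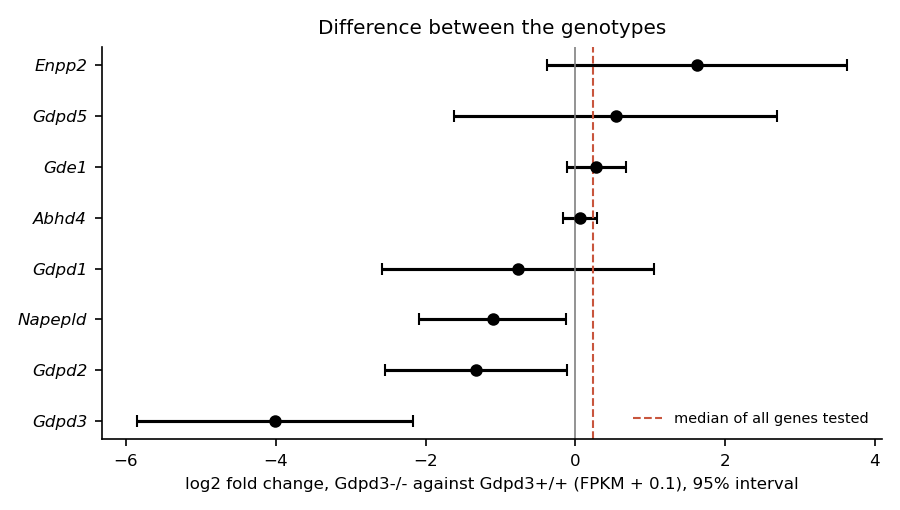
Log2 fold change of each of the 8 genes, *Gdpd3*-/- against *Gdpd3*+/+, on the log2(FPKM + 0.1) scale (horizontal), with points for the limma estimate and bars for its 95% interval, and a dashed line at the median of all genes tested, 0.24. The interval lies below 0 for *Gdpd3*, *Gdpd2* and *Napepld*, is narrowest for *Abhd4* (-0.16 to 0.29) and reaches from -0.38 to 3.62 for *Enpp2*.

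*Gdpd1*, the closest relative in activity, had a lower mean in *Gdpd3*-/- cells, 1.54 ± 1.17 FPKM against 2.16 ± 1.04 FPKM (SD, n = 3 each). It stood at 1.36 FPKM, 3.34 FPKM and 1.80 FPKM in *Gdpd3*+/+ replicates 1, 2 and 3 and at 1.71 FPKM, 0.294 FPKM and 2.62 FPKM in *Gdpd3*-/- replicates 5, 6 and 7. The groups overlapped widely, and replicate 6 stood far below the others of its group with 25 fragments. On the log2 scale the difference was -0.77 ± 0.76 (SE), with a 95% interval of -2.58 to 1.05 and an adjusted p of 0.548 in limma. The interval reaches from a level 0.167 times to one 2.07 times that of *Gdpd3*+/+, so a doubling lies within it. Without replicate 6 the value was 0.07. The gene lies at chr11:86847369-86887564 (mm9).

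*Enpp2*, which encodes autotaxin, was high in 2 of the 3 *Gdpd3*-/- libraries. It stood at 0.683 FPKM, 0.261 FPKM and 0.226 FPKM in *Gdpd3*+/+ and at 2.20 FPKM, 2.81 FPKM and 0.298 FPKM in *Gdpd3*-/-. Replicates 5 and 6 lay above every *Gdpd3*+/+ library, while replicate 7 lay inside the *Gdpd3*+/+ range. The means were 0.390 ± 0.254 FPKM and 1.77 ± 1.31 FPKM (SD, n = 3 each), with a log2 fold change of 1.62 ± 0.84 (SE) and an adjusted p of 0.304 in limma. With replicate 7 left out the value was 2.52 and the adjusted p 0.0359, in a setting where 3413 genes passed. With replicate 7 alone in its group the value was -0.18. The gene lies at chr15:54670453-54751701 (mm9).

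The summed levels of 3 marker lists of other tissues, skeletal muscle, stroma and fat, had the same order over the *Gdpd3*-/- libraries as *Enpp2*, highest in replicate 6, then 5, then 7. Those of osteoblast markers (14.96 FPKM, 10.3 FPKM and 12.6 FPKM in replicates 5, 6 and 7) and endothelial markers (26.8 FPKM, 22.0 FPKM and 28.3 FPKM) did not. The 10 stromal markers summed to 8.34 to 9.26 FPKM in *Gdpd3*+/+ and to 26.4 FPKM, 31.2 FPKM and 14.2 FPKM in *Gdpd3*-/- replicates 5, 6 and 7. Of these, 6 were above every *Gdpd3*+/+ library in both replicates 5 and 6, a share that was not computed over all genes. All 3 *Gdpd3*-/- libraries lay above in 2 of the 10, against 23.5% of all genes tested. Among the 6 was *Dcn*, which encodes the matrix proteoglycan decorin. It stood at 1.25 to 1.54 FPKM in *Gdpd3*+/+ and at 11.3 FPKM, 15.4 FPKM and 2.71 FPKM in *Gdpd3*-/-. *Pdgfrb*, the 1 stromal marker called (adjusted p of 0.036 in limma), did not share that order. It stood at 4.87 to 5.61 FPKM in *Gdpd3*+/+ and at 11.2 FPKM, 9.67 FPKM and 9.89 FPKM in replicates 5, 6 and 7. *Cxcl12*, *Lepr*, *Lum* and *Kitl* were not above every *Gdpd3*+/+ library in both replicates 5 and 6. The 5 adipocyte markers summed to 11.4 to 19.7 FPKM and to 62.9 FPKM, 76.9 FPKM and 42.1 FPKM, an order set by *Fabp4* and *Lpl*. *Adipoq*, which encodes the adipocyte hormone adiponectin, was at 0 in replicates 5 and 6 and at 2.22 FPKM in replicate 7, and *Cfd*, which encodes adipsin, stood at 3.25 FPKM, 0 FPKM and 12.3 FPKM in replicates 5, 6 and 7. The skeletal muscle sums given above had the same order, with 1.56% and 2.24% of all fragments in replicates 5 and 6, 0.293% in replicate 7 and at most 0.178% in *Gdpd3*+/+. The part of these cells in the *Enpp2* values was not tested.

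**Figure D3:**
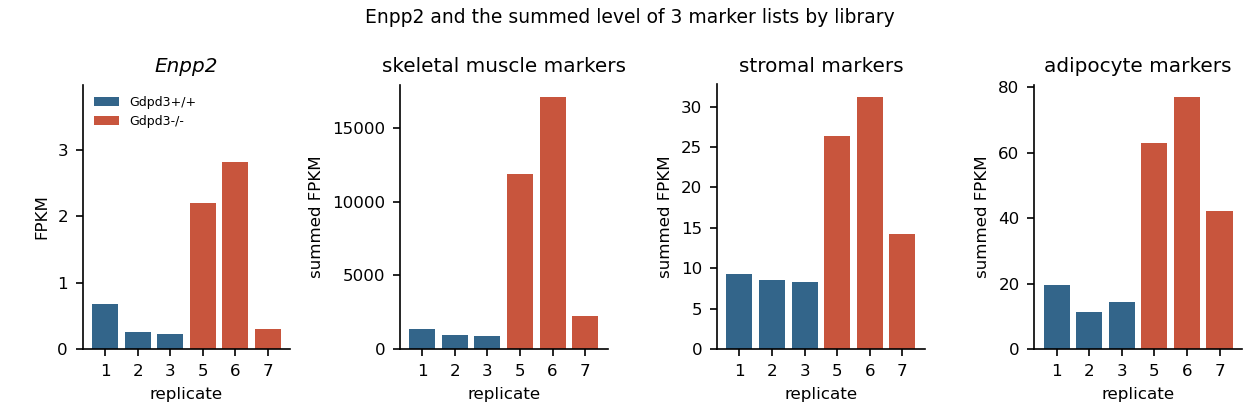
FPKM of *Enpp2* and summed FPKM of 13 skeletal muscle, 10 stromal and 5 adipocyte markers (vertical, each panel on its own scale from 0) in each library (horizontal, by replicate number), 1 bar a library. In all 4 panels *Gdpd3*-/- replicate 6 is highest and replicate 5 next, with *Enpp2* at 2.81 FPKM and 2.20 FPKM.

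The other lysophospholipase D genes among the 8 are *Gdpd1* and *Enpp2*, and their levels were summed after the values had been seen. The sum was 2.04 FPKM, 3.60 FPKM and 2.02 FPKM in *Gdpd3*+/+ and 3.91 FPKM, 3.11 FPKM and 2.92 FPKM in *Gdpd3*-/-. These overlapped, also after TMM scaling, and *Enpp2* made up most of the sum in replicates 5 and 6 but not in replicate 7.

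*Gde1* and *Abhd4* were the abundant members and held 89.8% to 96.2% of the summed FPKM of the 8 genes in each library. *Gde1* (chr7:125832059-125849292, mm9), a broadly expressed glycerophosphodiester phosphodiesterase, stood at 44.3 FPKM, 39.4 FPKM and 36.5 FPKM in *Gdpd3*+/+ and at 47.7 FPKM, 59.8 FPKM and 40.3 FPKM in *Gdpd3*-/-. The groups overlapped, since replicate 7 lay below *Gdpd3*+/+ replicate 1. In the fit its log2 fold change was 0.28 ± 0.16 (SE), close to the median of all genes, with a 95% interval of -0.11 to 0.67 and an adjusted p of 0.352 in limma.

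*Abhd4* (chr14:54878907-54888829, mm9) had the smallest ratio of highest to lowest library in both genotypes among the 8 genes. It stood at 54.5 FPKM, 56.6 FPKM and 53.3 FPKM in *Gdpd3*+/+ and at 58.3 FPKM, 52.9 FPKM and 60.9 FPKM in *Gdpd3*-/-, so the groups overlapped. The highest library exceeded the lowest by 1.06 times within *Gdpd3*+/+ and 1.15 times within *Gdpd3*-/-. In the fit the difference was 0.06 ± 0.09 (SE) on the log2 scale, with a 95% interval of -0.16 to 0.29 and an adjusted p of 0.688 in limma. Its direction depended on the scaling: after TMM scaling the value was -0.14 and the groups no longer overlapped, at 57.9 to 59.7 FPKM and 49.9 to 57.2 FPKM, and after quantile normalization it was -0.08.

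*Napepld* was lower in every *Gdpd3*-/- library. This enzyme releases N-acylethanolamines from their phospholipid precursors in a single step, and its gene lies at chr5:21168719-21207214 (mm9). It stood at 1.33 FPKM, 0.942 FPKM and 0.920 FPKM in *Gdpd3*+/+ and at 0.284 FPKM, 0.479 FPKM and 0.593 FPKM in *Gdpd3*-/-, from 223 to 262 and 24 to 69 fragments. The groups did not overlap, with *Gdpd3*+/+ replicate 1 highest and *Gdpd3*-/- replicate 5 lowest. The means were 1.06 ± 0.23 FPKM and 0.452 ± 0.156 FPKM (SD, n = 3 each), 2.35-fold apart. This gave a log2 fold change of -1.10 ± 0.41 (SE), with a 95% interval of -2.08 to -0.12, and the adjusted p was 0.185 in limma. The neutrophil and plasma cell markers were lower in the same libraries, and their part in the value was not tested.

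*Gdpd2* and *Gdpd5* were near the limit of detection. *Gdpd2* (chrX:97925212-97934234, mm9) stood at 0.257 FPKM, 0.0570 FPKM and 0.182 FPKM in *Gdpd3*+/+, from 59, 16.5 and 51.5 fragments, and had no fragment in any *Gdpd3*-/- library. At the *Gdpd3*+/+ mean, 63.3 fragments would fall on it in the 3 *Gdpd3*-/- libraries together. With a floor of 3 fragments a library, which corresponds to 0.0179 to 0.0305 FPKM and covers counting error only, it was at least 6.69-fold lower in *Gdpd3*-/-. The fitted difference had an adjusted p of 0.194 in limma and depends on the pseudocount.

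*Gdpd5* (chr7:106530059-106609493, mm9) stood at 0.241 FPKM, 0.0356 FPKM and 0.0729 FPKM in *Gdpd3*+/+ and at 0 FPKM, 0.858 FPKM and 0.155 FPKM in *Gdpd3*-/-. The groups overlapped, and replicate 6 stood apart with 112 fragments, while replicate 5 had none. Its log2 fold change was 0.54 ± 0.90 (SE), with a 95% interval of -1.61 to 2.69 and an adjusted p of 0.729 in limma. Without replicate 6 it was -0.32, so 1 library set its direction.

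**Figure D4:**
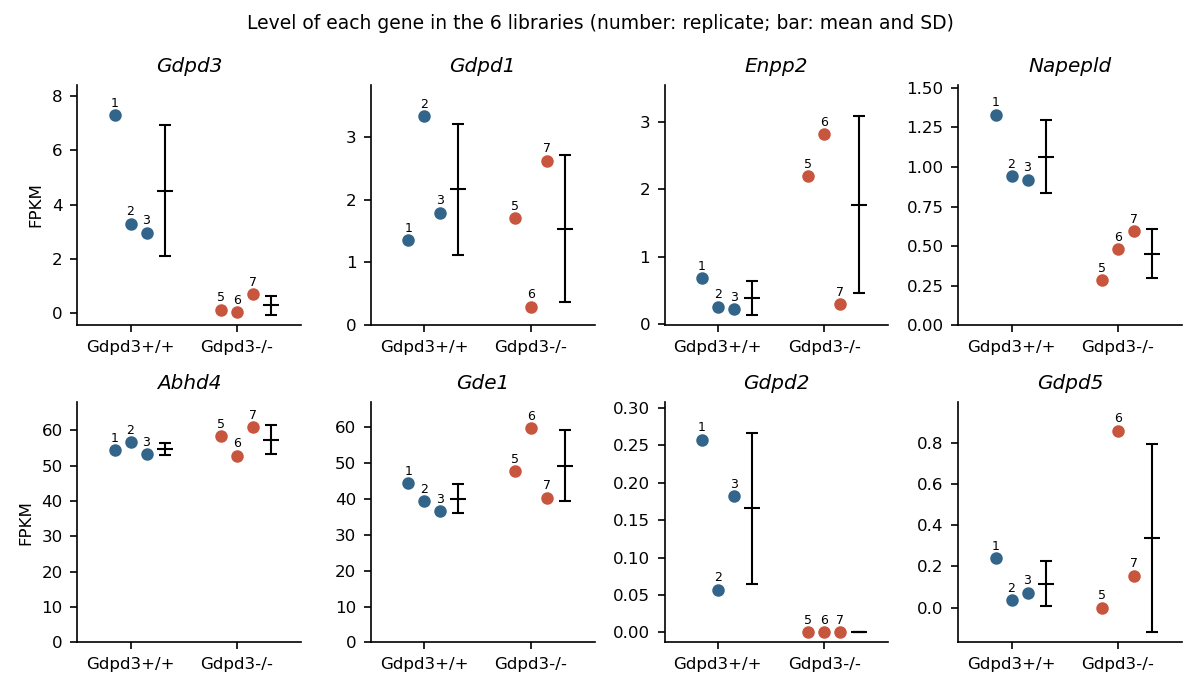
FPKM (vertical, each panel on its own linear scale) of the 8 genes in *Gdpd3*+/+ and *Gdpd3*-/- libraries (horizontal), with a point for each library numbered by its replicate and a bar for the mean and SD of 3 libraries. *Gdpd3*, *Napepld* and *Gdpd2* are the panels in which the groups do not overlap, while in *Enpp2*, *Gdpd1* and *Gdpd5* they do and the *Gdpd3*-/- libraries spread widely.

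The order of the levels differed between the genotypes below *Abhd4* and *Gde1*. In *Gdpd3*+/+ the mean order was *Abhd4*, *Gde1*, *Gdpd3*, *Gdpd1*, *Napepld*, *Enpp2*, *Gdpd2* and *Gdpd5*. Neighbours whose ranges over the libraries overlapped were *Gdpd3* with *Gdpd1*, *Enpp2* with *Gdpd2*, and *Gdpd2* with *Gdpd5*. Within each *Gdpd3*+/+ library, however, *Enpp2* stood above *Gdpd2* and *Gdpd2* above *Gdpd5*. *Gdpd3* and *Gdpd1* changed places in replicate 2. In *Gdpd3*-/- the order was *Abhd4*, *Gde1*, *Enpp2*, *Gdpd1*, *Napepld*, *Gdpd5*, *Gdpd3* and *Gdpd2*. There the libraries of each gene overlapped those of the next in this order, except *Gde1* with *Enpp2* and *Gdpd3* with *Gdpd2*. The overlapping pairs also changed places between libraries, so most of the order was not resolved. *Enpp2* had rank 6 in all 3 *Gdpd3*+/+ libraries and in *Gdpd3*-/- replicate 7, and rank 3 in replicates 5 and 6. *Napepld* had rank 5 in all 6 libraries. Without *Gdpd3* the summed level of the other members was 93.0 to 102.6 FPKM in *Gdpd3*+/+ and 104.9 to 117.1 FPKM in *Gdpd3*-/-, an order that was lost after TMM scaling, at 101.1 to 110.8 FPKM and 98.5 to 110.4 FPKM.

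Among 15102 other genes that averaged 1 FPKM or more, the 5 with the pattern most like *Gdpd3* on the log2(FPKM + 0.1) scale were *Cyfip2*, *1500003O03Rik*, *Dnajc3*, *Crbn* and *Gm16947*, with Pearson's r of 0.993 to 0.999 over the 6 libraries. The 6 libraries fall into the 3 of each genotype, which also differ in depth, so this is a description. Like *Gdpd3*, each was highest in *Gdpd3*+/+ replicate 1 and lowest in *Gdpd3*-/- replicate 6, but over a narrower range. *Cyfip2*, a component of the actin-regulating WAVE complex, stood at 31.1 to 32.8 FPKM in *Gdpd3*+/+ and 25.2 to 28.6 FPKM in *Gdpd3*-/-. *Crbn*, which encodes the ubiquitin ligase receptor cereblon, stood at 15.3 to 16.6 FPKM and 10.1 to 13.4 FPKM. Of the members, r with *Gdpd3* was 0.58 for *Gdpd1*, -0.12 for *Abhd4*, -0.75 for *Gde1* and -0.78 for *Enpp2*.

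Genes that surround these enzymes were read from 7 lists, and 66 of their 71 measured genes could be tested. 1 of the 66 passed an adjusted p of 0.05 in limma, against 1.71% of all genes tested, and it was lower. All *Gdpd3*-/- libraries lay above all *Gdpd3*+/+ libraries in 12 of the 66 (18.2%), against 23.5% of all genes tested, and below in 9 (13.6%), against 8.27%. *Pla2g4e* and *Ppara* among the 12, and *Gpat2* among the 9, passed the filter on low values only through the genotype where they were higher. Over the 66 the median log2 fold change was 0.15, against 0.24 for all genes.

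Among 6 tested relatives in the GDPD and ENPP families, the 1 called gene was *Enpp1*, which encodes an ectoenzyme that releases pyrophosphate from nucleotides. *Enpp1* stood at 5.40 FPKM, 5.33 FPKM and 6.06 FPKM in *Gdpd3*+/+ and at 2.01 FPKM, 2.002 FPKM and 2.86 FPKM in *Gdpd3*-/-. The groups lay well apart, with a log2 fold change of -1.27 ± 0.22 (SE) and an adjusted p of 0.0487 in limma, and the call was lost in 9 of 16 alternatives, among them the leaving out of any *Gdpd3*+/+ library or of replicate 5 or 6, with adjusted p-values of 0.0559 to 0.275. The plasma cell and neutrophil markers were lower in the same libraries, and their part in this value was not tested. *Enpp4* stood at 10.9 to 12.3 FPKM and 14.3 to 15.8 FPKM, without overlap and with an adjusted p of 0.122. *Gpcpd1*, which encodes a glycerophosphocholine phosphodiesterase of the same family as *Gdpd3*, stood at 8.54 to 10.2 FPKM and 4.85 to 9.50 FPKM, and its groups overlapped. *Enpp7* was at 0 in every library.

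Other routes to LPA showed no called gene among 7 tested, and the lowest adjusted p was 0.397. *Agk*, the acylglycerol kinase that phosphorylates monoacylglycerol to LPA, stood at 18.3 to 23.6 FPKM and 14.7 to 28.0 FPKM. Of the 5 tested LPA receptors none was called, and the groups did not overlap in 2 that were low throughout. In 1 the *Gdpd3*-/- libraries lay above (20%, against 23.5% of all genes tested) and in 1 below (20%, against 8.27%). *Lpar4* stood at 0.816 FPKM, 0.451 FPKM and 0.578 FPKM in *Gdpd3*+/+ and at 0.254 FPKM, 0 FPKM and 0.347 FPKM in *Gdpd3*-/-, with an adjusted p of 0.255. *Lpar1* stood at 0.0984 FPKM, 0 FPKM and 0.0799 FPKM and at 0.678 FPKM, 0.154 FPKM and 0.519 FPKM, with an adjusted p of 0.176. *Lpar6* was the most abundant at 14.8 to 16.3 FPKM and 12.2 to 20.4 FPKM, and *Lpar5* stood at 3.15 to 3.49 FPKM in *Gdpd3*+/+ and at 9.19 FPKM, 1.27 FPKM and 4.57 FPKM in *Gdpd3*-/-. *Lpar3* had no fragment in 5 of the 6 libraries.

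Of the 13 genes that remove LPA, none was called and 4 had groups that did not overlap, 2 with *Gdpd3*-/- above (15.4%, against 23.5% of all genes tested) and 2 below (15.4%, against 8.27%). *Ppap2b* (now *Plpp3*), a lipid phosphate phosphatase at the cell surface, stood at 1.75 to 2.22 FPKM and 2.75 to 4.66 FPKM. *Agpat3*, which acylates LPA to phosphatidic acid, stood at 4.29 to 5.03 FPKM and 6.55 to 8.62 FPKM, with an adjusted p of 0.0866. In the other direction, *Ppapdc1b* (now *Plpp5*), of the same phosphatase family, stood at 25.2 to 26.3 FPKM and 18.0 to 20.05 FPKM, with an adjusted p of 0.0806, and *Abhd5*, a coactivator of triglyceride lipase, at 11.2 to 13.8 FPKM and 8.14 to 10.1 FPKM. *Ppap2b* and *Agpat3* passed the threshold without *Gdpd3*-/- replicate 7, at adjusted p-values of 0.0440 and 0.0302, and so did *Ppapdc1b* at 0.0450. In that setting 3413 genes passed. Leaving out any 1 *Gdpd3*+/+ library gave these 3 genes adjusted p-values of 0.284 to 0.398 in limma.

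The N-acylethanolamine list, which holds the neighbours of *Napepld* and *Abhd4*, had no called gene among 13 tested. Its groups did not overlap in 6 genes, 5 with *Gdpd3*-/- above (38.5%, against 23.5% of all genes tested) and 1 below (7.69%, against 8.27%). Of the 5, *Pla2g4e* and *Ppara* reached at most 0.00866 FPKM and 0.00425 FPKM in *Gdpd3*+/+. They passed the filter, a mean of 0.05 FPKM, only through *Gdpd3*-/-, so their direction was fixed in advance. *Pla2g16* (now *Plaat3*), a phospholipase and acyltransferase of the family that makes N-acyl phosphatidylethanolamines, stood at 7.04 to 8.34 FPKM and 12.05 to 12.5 FPKM, with a log2 fold change of 0.67 ± 0.13 (SE) and an adjusted p of 0.0577, and of 0.0347 without *Gdpd3*-/- replicate 7. *Faah*, which encodes the hydrolase that degrades anandamide, stood at 2.17 to 2.58 FPKM and 3.14 to 5.36 FPKM, with an adjusted p of 0.140. *Cnr2*, the cannabinoid receptor of immune cells, was the 1 with *Gdpd3*-/- below, at 8.01 FPKM, 5.33 FPKM and 6.03 FPKM against 2.06 FPKM, 2.94 FPKM and 3.15 FPKM. Its log2 fold change was -1.22 ± 0.25 (SE), with an adjusted p of 0.0669, and of 0.0351 without replicate 7. Without replicate 7, 3413 genes passed, and without any 1 *Gdpd3*+/+ library neither *Pla2g16* nor *Cnr2* did.

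Among 16 genes that supply or use glycerophosphodiesters none was called. *Gpd1*, the cytosolic glycerol-3-phosphate dehydrogenase abundant in fat and muscle, stood at 0.991 FPKM, 0.557 FPKM and 0.366 FPKM in *Gdpd3*+/+ and at 3.23 FPKM, 4.52 FPKM and 2.06 FPKM in *Gdpd3*-/-. Its order over the *Gdpd3*-/- libraries was that of the muscle and adipocyte marker sums, whose part was not tested. Its adjusted p was 0.0665 in limma, or 0.0290 without replicate 7, when 3413 genes passed. Its relative *Gpd1l* stood lower, at 10.5 to 12.6 FPKM and 5.83 to 9.38 FPKM, with an adjusted p of 0.190, and *Lypla1*, a lysophospholipase, at 20.2 to 23.9 FPKM and 15.7 to 20.01 FPKM, with an adjusted p of 0.331.

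The list labelled classical phospholipase D held 6 genes, not all of them classical enzymes, and no call. In 2 the *Gdpd3*-/- libraries lay above (33.3%, against 23.5% of all genes tested) and in 1 below (16.7%, against 8.27%). *Pld1* and *Pld2* both encode enzymes that cleave phosphatidylcholine to phosphatidic acid. *Pld1* stood at 1.79 to 2.02 FPKM and 0.220 to 1.26 FPKM, and *Pld2* at 0.929 to 1.33 FPKM and 1.64 to 2.53 FPKM. Neither pair of groups overlapped, and the adjusted p-values were 0.255 and 0.209. *Gpld1*, which encodes a phospholipase D that releases glycosylphosphatidylinositol-anchored proteins, stood at 1.09 to 1.77 FPKM and 2.24 to 2.89 FPKM, with an adjusted p of 0.181.

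**Figure D5:**
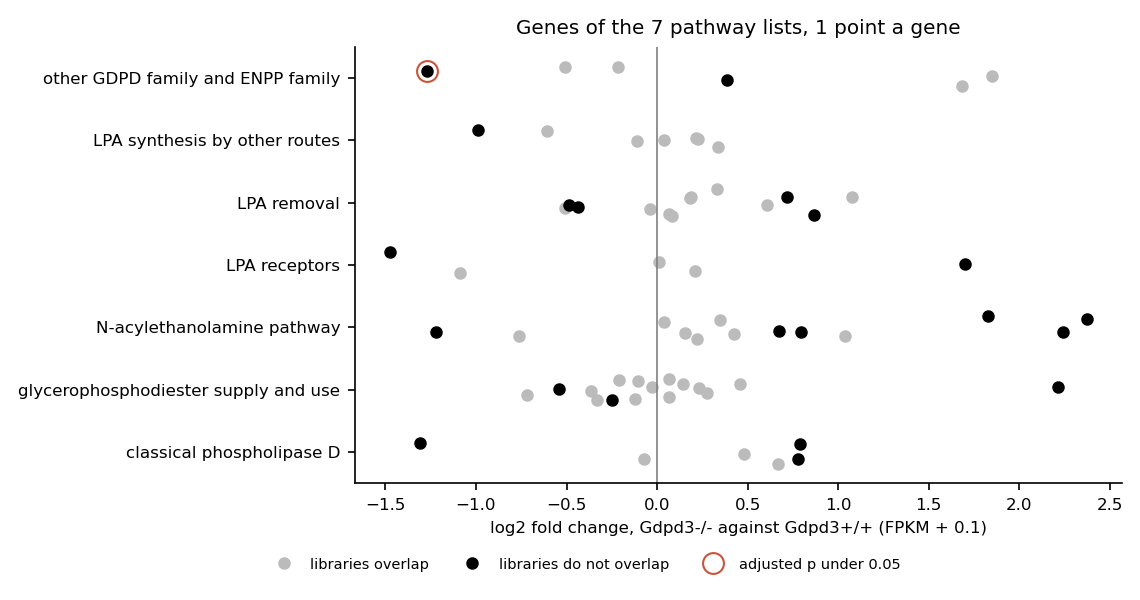
Log2 fold change, *Gdpd3*-/- against *Gdpd3*+/+, on the log2(FPKM + 0.1) scale (horizontal) of the 66 tested genes of 7 lists (vertical), 1 point a gene, black where the libraries of the genotypes do not overlap and ringed at an adjusted p under 0.05. The ring is *Enpp1* at -1.27, and the black points lie on both sides of 0.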

How the data were processed

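RNA-seq was analysed for 6 libraries of sorted LT-CML stem cells, grouped by the genotype in their labels. Libraries were made with the SMART-Seq v4 kit and Nextera XT fragmentation, a preparation that does not mark strand. The submitters' processing notes name Trimmomatic, Trim Galore, cutadapt 1.16, STAR 2.6.1a, featureCounts 1.6.1, DESeq2 and the mm9 build. The authors deposited FPKM values for 36976 genes and a table of their own comparison, whose fold changes and p-values were not used. In every library FPKM times gene length was a whole multiple, within 0.1, of a step that equals 1 hundredth of a fragment (100% of low values), so shared fragments had been split between genes. Mean recovered fragments, scaled by median-ratio size factors, matched the base mean signal that the authors deposited, with a median ratio of 1.00 (0.984 to 1.01 at the 1st and 99th percentiles) over 19731 genes with a base mean over 10. Of the low values, 39.3% to 58.2% were whole fragments.

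Genes that averaged 0.05 FPKM or more were tested on the log2(FPKM + 0.1) scale with limma 3.58.1 in R 4.3.3, using an intensity trend and a single term for genotype, with Benjamini-Hochberg adjustment. Fold changes on this scale understate the change of low genes. The fit was tested on simulated data in which all libraries had the spread within *Gdpd3*+/+. The wider spread of the *Gdpd3*-/- libraries was not covered by that simulation. Other settings used a pseudocount of 0.01 or 1, all genes or those averaging 1 FPKM or more, TMM scaling (30% of M and 5% of A trimmed, without weights), quantile normalization, a fit without the trend, array weights, and each library left out in turn; voom weights on recovered fragments, and *Gdpd3*-/- replicate 7 alone in its group, were added after seeing the data.

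Members and lists were chosen with earlier results of these data known. Named genes were every member, list genes with an adjusted p under 0.05, list genes averaging 1 FPKM or more whose groups did not overlap, genes overlapping or next to *Gdpd3*, and the 5 genes most like it. *Gpcpd1*, *Enpp7*, *Agk*, *Lpar1*, *Lpar3*, *Lpar4*, *Lpar5*, *Lpar6*, *Kit*, *Flt3*, *Cd48*, *Dcn*, *Fabp4*, *Lpl*, *Cfd* and *Adipoq* were named after their values were seen. So were *Slamf1*, *Pdgfrb*, *Cxcl12*, *Lepr*, *Lum*, *Kitl*, *Pla2g4e*, *Ppara* and *Gpat2*. *Gk* and *Mzb1* were matched by gene identifier under older symbols.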

Additional observations from a re-analysis of the deposited data

How the results depend on the processing

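The number of genes called was 422 as reported, 225 with a pseudocount of 1, 673 among genes averaging 1 FPKM or more, 153 without the intensity trend, 240 with array weights, 906 with voom weights on recovered fragments and 2294 with *Gdpd3*-/- replicate 7 alone in its group, and ran from 0 to 3413 when 1 library was left out. It was 0, 1 and 21 without *Gdpd3*+/+ replicates 1, 2 and 3, and 3413 without *Gdpd3*-/- replicate 7. Members called numbered 0 as reported and 1 (*Gdpd3*) among genes averaging 1 FPKM or more, and 0 to 2 when 1 library was left out, the 2 being *Gdpd3* and *Enpp2* without replicate 7. Genes called in the pathway lists numbered 1 as reported, 0 with a pseudocount of 1, without the trend or with array weights, 2 with TMM scaling, 3 among genes averaging 1 FPKM or more, 6 with voom weights, 4 with replicate 7 alone and 0 to 11 when 1 library was left out.

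The sign of the log2 fold change turned for *Abhd4* with TMM scaling (-0.14) and quantile normalization (-0.081), for *Mapk3* with TMM scaling (-0.050), for *Gdpd1* (0.066) and *Gdpd5* (-0.32) without *Gdpd3*-/- replicate 6 (ranges over the libraries left out -1.33 to 0.066 and -0.32 to 1.31), and for *Gdpd1* (0.36) and *Enpp2* (-0.18) with replicate 7 alone; the cause was not tested. *Gdpd3* stayed lower in all 16 alternatives, from -5.07 to -2.07, with adjusted p-values of 0.0106 to 0.269, and *Napepld* in all 15 that could be run, from -1.60 to -0.51, with adjusted p-values of 0.0926 to 0.508. With replicate 7 alone, that library is assumed to vary like the *Gdpd3*+/+ group. No paired analysis was possible because the genotypes share no replicate number. Depth limits *Gdpd2* and *Gdpd5*, with at most 59 and 112 fragments in a library.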
